A study of Rattus norvegicus with 170 samples.

Results

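The genes followed here are those of cytokinesis and of the chromosomal passenger complex, read in single cells of rat islets. They were chosen by gene symbol from the known roles of their proteins in the last steps of cell division, with earlier results of these data known. They comprise *Ect2*, *Prc1*, *Anln*, *Racgap1*, *Kif23*, *Kif20a*, *Aurkb*, *Birc5*, *Cdca8* and *Cep55*. All 10 were found among the 24113 genes of the table. The islets came from wild-type male Sprague Dawley rats aged 8 weeks and spent 48 h in medium with 5.5 mM glucose. The medium held either 0.1% DMSO, the vehicle, or 3 μM GNF4877, an aminopyrazine inhibitor of the kinases DYRK1A and GSK3B. Dispersed cells were caught 1 to a port on Fluidigm C1 chips, cDNA was made with the SMARTer chemistry, and 86 DMSO cells and 84 GNF4877 cells were sequenced with single reads of 50 bp. Neither the labels nor the methods name an animal, a culture or a second chip behind a cell, so each treatment counts as 1 sample, its cells are not replicates, no test was run, and treatment, chip and lane cannot be told apart.

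Cytokinesis is the step in which a dividing cell is pinched into daughters once its chromosomes have moved apart. Prc1 bundles microtubules between the separating chromosomes into a central spindle, on which centralspindlin, made of Racgap1 and Kif23, brings in Ect2 to switch on RhoA and so the contractile ring. The passenger complex of Aurora B with survivin, borealin and Incenp first corrects chromosome attachment at centromeres and then moves to the central spindle, and Cep55 calls the machinery that cuts the last bridge. In adult islets β-cells seldom divide, and transcripts of these genes are known to peak in cells in G2 and mitosis.

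Values are RPM, the reads of a transcript per 1000000 mapped reads of the cell, not divided by transcript length, so levels are compared between cells and not between genes. Cells count as Ins1-high when the insulin gene *Ins1* reaches 1000 RPM, and each was placed by cyclin B1 (*Ccnb1*), a cyclin of entry into mitosis, as Ccnb1-zero with no read or as Ccnb1-high at 10 RPM or more. Of the 59 Ins1-high GNF4877 cells, 40 were Ccnb1-zero, 11 were Ccnb1-high and 8 lay between these classes. Of the 78 Ins1-high DMSO cells, 77 were Ccnb1-zero and 1, cell 46, was Ccnb1-high. *Ccnb1* placed the cells, so its own difference between the classes is not a result. The Ins1-high cell with the least *Ins1* held 1248 RPM (GNF4877 cell 2), and the cell just under the threshold 813 RPM (GNF4877 cell 27). For *Ccnb1*, the lowest value among the Ccnb1-high cells was 19.1 RPM, in GNF4877 cell 17 with reads of 8 members, and the highest value under the threshold was 6.85 RPM, in GNF4877 cell 95 with reads of all 10 members.

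Mapped reads per cell ran from 241604 to 2499138 in DMSO, with a median of 1208304, and from 298829 to 2171567 in GNF4877, with a median of 1414725. The median was 1240658 in the DMSO Ccnb1-zero cells, 1381746 in the GNF4877 Ccnb1-zero cells and 1583250 in the Ccnb1-high cells of GNF4877. The same classes had a median of 8932, 6913 and 7527 genes with a read. With each cell thinned to 100000 reads, these medians were 6615, 4838 and 5264 genes, over 75, 39 and 11 cells, so the DMSO cells held more genes at equal depth too.

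Marker genes were summed in the insulin cells. The β-cell sum includes *Ins1*, which placed the cells as Ins1-high, so a high sum is no independent check of that label. In the 11 Ccnb1-high GNF4877 cells, 7 of the 8 β-cell markers in the table had reads, with a summed mean of 80270.4 RPM led by *Ins1* (46807 RPM) and with *Mafa* at 0. The sum was 40816 RPM in the GNF4877 Ccnb1-zero cells, also with *Mafa* at 0, and 67039 RPM in the DMSO Ccnb1-zero cells, where all 8 were read. Medians of the sum per cell were 54472, 29771 and 51290 RPM in the same order of classes. The highest sum of a Ccnb1-high GNF4877 cell was 341380 RPM, which raised the mean of that class. Of the 11 Ccnb1-high cells, cell 31, with reads of 7 members, also held 37011 RPM of *Gcg*. Other hormones differed between the chips: 25 of the 78 Ins1-high DMSO cells and 4 of the 59 Ins1-high GNF4877 cells reached 1000 RPM for *Gcg*, *Sst* or *Ppy* as well. Without the cells that held such a second hormone, the share of cells with reads of 5 or more members was 16.4% (9 of 55) in GNF4877 and 1.89% (1 of 53) in DMSO. Whether those cells were pairs of cells was not tested.

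Reads of many of the 10 genes in 1 cell were found nearly only after GNF4877. Reads of 5 or more members were found in 11 of the 59 Ins1-high GNF4877 cells, or 18.6% (95% exact Clopper-Pearson, from 9.69% to 30.9%), and in 1 of the 78 Ins1-high DMSO cells, a share of 1.28% (0.0325% to 6.94%). These intervals, like all intervals here, cover counting error only. The 11 GNF4877 cells comprised 9 of the 11 Ccnb1-high cells, 2 of the 8 cells with lower *Ccnb1* and 0 of the 40 Ccnb1-zero cells, which allows a share of up to 8.81%. The DMSO cell was cell 46, with reads of all 10 members, and 0 of the 77 DMSO Ccnb1-zero cells had 5 or more, which allows up to 4.68%.

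The number of members read per cell was spread widely among the Ccnb1-high GNF4877 cells, from 1 to 10 with a median of 7. In the cells between the classes it ran from 1 to 10 with a median of 2.5. In the Ccnb1-zero cells it ran from 0 to 4 with a median of 2 in GNF4877, and from 0 to 3 with a median of 1 in DMSO. The Ccnb1-high and Ccnb1-zero cells of GNF4877 therefore overlap at their ends, through cell 78 with 1 member and cell 63 with 3 members. Cell 78 held the highest *Ins1* value of all Ins1-high cells (184281 RPM) and 392 RPM of *Ccnb1*, but of the 10 genes only *Anln*, at 71.1 RPM. With a member counted only at 10 RPM or more, 8 of 59 GNF4877 cells and 1 of 78 DMSO cells held 5 or more members.

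**Figure D1:**
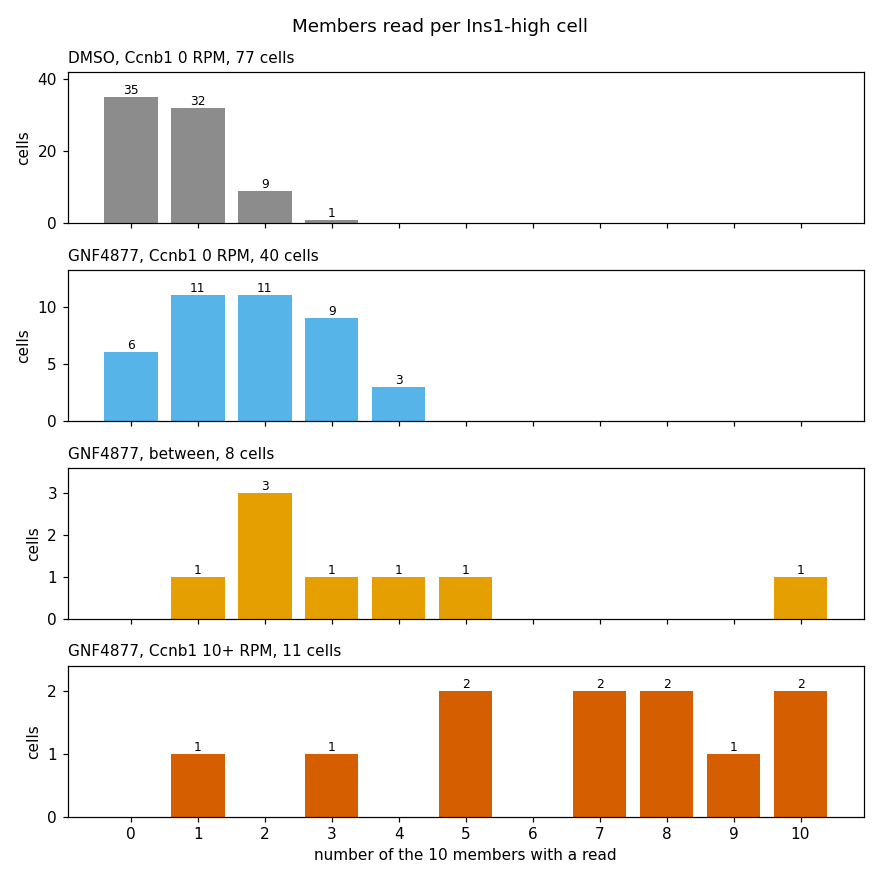
Number of Ins1-high cells (vertical axis, a scale of its own in each panel) by the number of the 10 members with a read (horizontal axis), for DMSO and GNF4877 cells with no *Ccnb1* read, GNF4877 cells between the *Ccnb1* classes and GNF4877 cells with 10 RPM or more. Cells with 5 or more members are seen in the lower panels only, and the 1 DMSO Ccnb1-high cell, with 10 members, is not drawn.

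Among the genes of the central spindle, *Prc1*, which bundles its microtubules, was read in 10 of the 11 Ccnb1-high GNF4877 cells, from 0 to 1741 RPM with a median of 133 RPM. It was read in 26 of the 40 GNF4877 Ccnb1-zero cells, from 0 to 143 RPM with a median of 0.723 RPM, and in 3 of the 77 DMSO Ccnb1-zero cells, where the highest value was 3.92 RPM. The highest values were found in Ccnb1-high cells, but Ccnb1-zero GNF4877 cells 12 (143 RPM) and 50 (108 RPM) reached the middle of their range, and low values were found in many Ccnb1-zero cells of GNF4877 and few of DMSO. The mean was 447 RPM in the Ccnb1-high and 7.34 RPM in the Ccnb1-zero GNF4877 cells, a log2 ratio of 5.75 with a pseudocount of 1 RPM, the scale of every log2 ratio here other than bounds and where said.

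Centralspindlin is built from *Racgap1*, a regulator of small GTPases, and the kinesin *Kif23*. *Racgap1* was read in 9 of the 11 Ccnb1-high cells, from 0 to 656 RPM with a median of 108 RPM, against 4 of 40 Ccnb1-zero cells of GNF4877 (highest 97.2 RPM) and 6 of 77 of DMSO (highest 91.7 RPM, cell 37). All 9 of these Ccnb1-high cells held 48.8 RPM or more, and only 1 Ccnb1-zero cell of each treatment reached that level. *Kif23* was read in 6 of the 11 Ccnb1-high cells, from 0 to 571 RPM with a median of 0.844 RPM. Of the Ccnb1-zero cells, 2 of 40 in GNF4877 (highest 66.2 RPM, cell 12) and 1 of 77 in DMSO (7.12 RPM) held *Kif23*. Both centralspindlin genes peaked in the same cell, GNF4877 cell 16, and their log2 ratios of Ccnb1-high over Ccnb1-zero GNF4877 cells were 5.07 for *Racgap1* and 5.24 for *Kif23*.

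*Ect2*, the exchange factor that activates RhoA at the cell equator, was read in 10 of the 11 Ccnb1-high cells, from 0 to 815 RPM with a median of 174 RPM. In the GNF4877 Ccnb1-zero cells it was read in 11 of 40, and 8 of these 11 held 1 to 3 reads. The most was in cell 22, whose 246 RPM made up 81.2% of the summed *Ect2* of its class, followed by cell 26 with 46.3 RPM. The only DMSO Ccnb1-zero cell with *Ect2* held 12.2 RPM. The log2 ratio of Ccnb1-high over Ccnb1-zero GNF4877 cells was 4.74.

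*Anln* encodes anillin, the scaffold that ties the ring to the membrane. Within the Ccnb1-high cells it was either absent from the reads or well covered. The 7 Ccnb1-high cells with reads held 31.5 to 161 RPM, and the other 4 held none, for a median of 68.6 RPM. The most *Anln* of any Ins1-high cell, 507 RPM, lay in a Ccnb1-zero cell, GNF4877 cell 11, with 99.8% of the summed *Anln* of that class. The log2 ratio of Ccnb1-high over Ccnb1-zero cells was 2.05, and 5.79 without cell 11. By the GRCr8 gene table *Anln* overlaps *Matcap2*, and *Kif20a* overlaps *Cdc23*, both protein coding. The library does not mark strand, so reads of *Anln* and *Kif20a* are uncertain to that extent. *Ect2* overlaps a pseudogene and *Prc1* a small nucleolar RNA gene.

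*Kif20a*, the kinesin that carries the passenger complex to the central spindle, differed from the other members in being read widely in DMSO. It was read in 32 of the 77 DMSO Ccnb1-zero cells (41.6%, interval 30.4% to 53.4%), up to 65.6 RPM, and in 13 of the 40 GNF4877 Ccnb1-zero cells (32.5%, 18.6% to 49.1%), up to 84.0 RPM. In the 11 Ccnb1-high cells it was read in 7, from 0 to 935 RPM with a median of 2.53 RPM, and cell 40 held 56.9% of the sum. Most cells of the classes lie in a shared range, and the log2 ratio of Ccnb1-high over Ccnb1-zero GNF4877 cells was 4.78.

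Of the passenger complex, *Aurkb*, the gene of its kinase Aurora B, was read in 7 of the 11 Ccnb1-high cells, from 0 to 1246 RPM with a median of 30.4 RPM. Cell 17, the Ccnb1-high cell with the least *Ccnb1*, held 69.4% of the sum. Without cell 17 the log2 ratio over Ccnb1-zero GNF4877 cells, 3.78 with all cells, was 2.22. Only 3 of 40 Ccnb1-zero cells of GNF4877 had an *Aurkb* read, but cells 39 and 29 among them held 227 and 211 RPM, levels within the upper range of the Ccnb1-high cells. In DMSO 3 of 77 Ccnb1-zero cells had a read, and cell 34 held 120.4 RPM.

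*Cdca8*, the gene of borealin, which docks the complex on nucleosomes, was read in 10 of the 11 Ccnb1-high cells, from 0 to 503 RPM with a median of 71.4 RPM. It was read in 10 of the 40 Ccnb1-zero GNF4877 cells, up to 65.03 RPM, and in 4 of the 77 DMSO Ccnb1-zero cells, up to 27.9 RPM. The upper part of the Ccnb1-high range was not reached by any Ccnb1-zero cell, and the log2 ratio within GNF4877 was 4.40. *Birc5*, the gene of survivin, which reads a phosphorylated histone at the centromere, was seldom read: in 3 of the 11 Ccnb1-high cells, at 14.3 to 80.8 RPM, and with a single read in 1 of 40 Ccnb1-zero cells of GNF4877. Over the summed reads of each class, with 257 *Birc5* reads against 1, the ratio was 788-fold with a counting interval of 140.2-fold to 31251-fold. All 257 reads came from those 3 Ccnb1-high cells, which the ratio describes, and the log2 ratio on the main scale was 3.91. In DMSO 2 of 77 Ccnb1-zero cells held *Birc5*, with 27.9 RPM as the highest value.

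*Cep55*, which recruits the abscission machinery to the midbody, had no read in any Ccnb1-zero cell. It was read in 4 of the 11 Ccnb1-high cells, at 8.93 to 145.0 RPM, and in 2 of the 8 cells between the classes. The count was 0 of 40 Ccnb1-zero GNF4877 cells, which allows a share of up to 8.81%, and 0 of 77 DMSO Ccnb1-zero cells, which allows up to 4.68%. Set against a floor of 3 reads over the 40 cells (0.0577 RPM), the mean of the Ccnb1-high cells was 321-fold higher. This is a log2 bound of 8.33 with no pseudocount, and it covers read counting only, not the spread between cells. Cell 30 held 71.1% of that class's sum, and without it the mean was 5.90 RPM against 18.5 RPM.

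**Figure D2:**
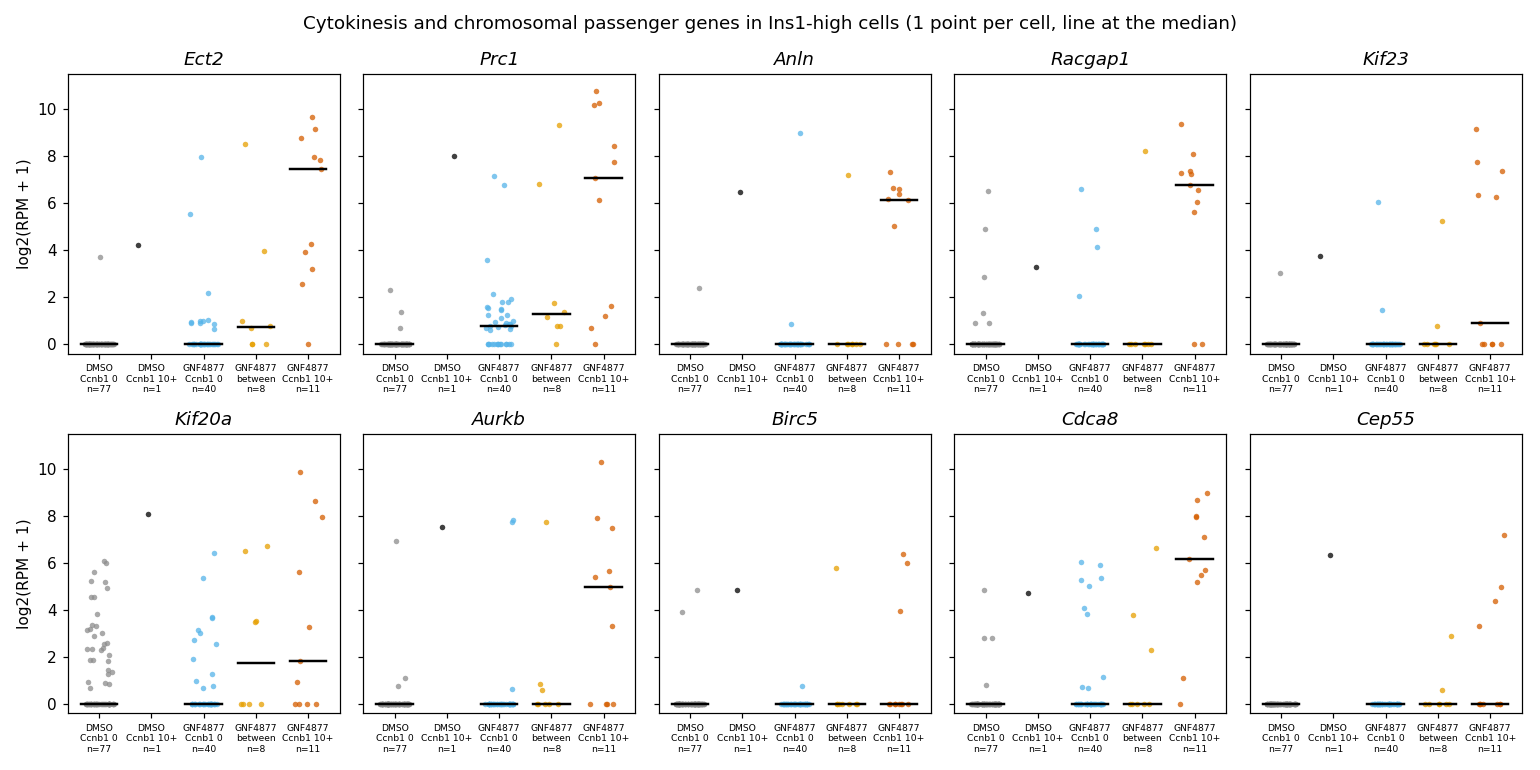
Level of each member, as log2(RPM + 1) on the vertical axis, in each Ins1-high cell by treatment and *Ccnb1* class (0, between 0 and 10, and 10 RPM or more, written 10+); each point is 1 cell and the black line is the median of a class. Points of the GNF4877 cells with 10 RPM or more of *Ccnb1* lie high for *Ect2*, *Prc1*, *Racgap1* and *Cdca8*, and *Kif20a* is scattered in DMSO cells too.

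All of the 10 members were past 4-fold higher in Ccnb1-high than in Ccnb1-zero GNF4877 cells, beside 7.45% of the 13041 genes with a mean of 1 RPM or more in either class (971 genes), while 11.4% of those genes were past 4-fold lower. *Birc5* and *Cep55* reached that mean only in the Ccnb1-high cells and so had to differ. The other 8 reached it in both classes. The log2 ratios ran from 2.05 for *Anln* to 5.75 for *Prc1*, with a median of 4.57, or 4.76 with *Cep55* at its bound, which has no pseudocount, and the median over all 13041 genes was −0.10. The high mean of the Ccnb1-high class rests on few cells, chief among them GNF4877 cells 40 and 16. Cell 40 held 10 RPM or more of every member and, among Ins1-high cells, the highest value of *Prc1*, *Ect2*, *Kif20a*, *Cdca8* and *Birc5*.

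Every one of these 10 ratios stayed above 0 when any single cell was left out, but 1 cell often set the size. *Anln* was under 4-fold without cell 16 (1.75), and also without cell 30, 36 or 40. When log2(RPM + 1) was averaged over cells before the classes were subtracted, 8 of the 10 members were past 4-fold, and *Birc5* (1.46) and *Cep55* (1.804) were not. On this scale 458 of the 13041 genes were past 4-fold higher. Without cell 40, *Kif20a* stood at 3.72 and *Birc5* at 3.08, against 3.91 with it. Without cell 16 *Kif23* stood at 4.34, and without cell 30 *Cep55* stood at 2.79, against 4.29 with it. Among the Ccnb1-zero cells, leaving out cell 12 gave 6.53 for *Prc1*, 6.12 for *Racgap1* and 6.61 for *Kif23*. *Ect2* was 6.54 without cell 22, *Kif20a* 5.46 without cell 74 and *Aurkb* 4.68 without cell 39. The cells that held a member without *Ccnb1* therefore lowered the ratios.

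Within cells that had no *Ccnb1* read, the treatments differed less, and single cells carried much of the difference. Of the 10 members, 8 had a mean of 1 RPM or more in either treatment, and 5 were past 4-fold higher in GNF4877, *Anln*, *Prc1*, *Ect2*, *Cdca8* and *Aurkb*, beside 2.05% of 13774 genes (282 genes). No member was past 4-fold lower, beside 5.99% of these genes. Only *Racgap1*, *Kif20a* and *Aurkb* reached that mean in both treatments. Of these only *Aurkb* was past 4-fold, beside 1.37% of the 11661 genes that reached it in both. None of the 10 was past 4-fold with a pseudocount of 10 RPM, beside 32 of the 13774 genes. Nor was any when logs were averaged over cells first, beside 19 genes, with *Prc1* highest at 1.05. The median log2 ratio was 1.76 over the 10 members and 2.26 over the 8, beside −0.16 over all genes tested. Without GNF4877 cell 11 the median over the 10 members was 1.07.

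The log2 ratio of *Anln*, 3.70, was −0.05 without cell 11, whose 507 RPM stood against 4.26 RPM in the only DMSO Ccnb1-zero cell with reads. With 480 reads against 2, its ratio over summed reads was 434-fold (counting interval, 119-fold to 3593-fold), which describes that cell. *Ect2*, at 2.89, was 1.09 without cell 22, and *Kif23*, at 1.30, was −0.07 without cell 12. *Racgap1*, at 0.79, was −0.26 without cell 12 and 1.63 without DMSO cell 37. *Aurkb* stood at 2.21, at 1.31 without GNF4877 cell 39 and at 3.55 without DMSO cell 34. *Kif20a* had a log2 ratio of −0.26, or −0.93 without GNF4877 cell 74, and *Birc5*, with 1 read against 79, one of −0.60. Its ratio over summed reads was 0.0229-fold, with a counting interval of 0.000572-fold to 0.131-fold, and DMSO cell 57 held 63 of the 79 reads. Without that cell the log2 ratio of *Birc5* was −0.22.

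*Prc1* (2.95) and *Cdca8* (2.31) depended less on any single cell, with lowest log2 ratios of 2.17, without cell 12, and 1.996, just under 4-fold, without cell 56. More cells had a *Prc1* read in GNF4877, 65% of the GNF4877 Ccnb1-zero cells (26 of 40, interval 48.3% to 79.4%) against 3.90% of the DMSO Ccnb1-zero cells (3 of 77, 0.811% to 10.97%). Of the 26 cells, 22 held only 1 to 3 *Prc1* reads, and most of the mean behind the log2 ratio came from cells 12 (143 RPM) and 50 (108 RPM). At 100000 reads per cell, *Prc1* was read in 12.8% of the GNF4877 Ccnb1-zero cells (5 of 39, 4.30% to 27.4%). The share was 2.67% of the DMSO Ccnb1-zero cells (2 of 75, 0.325% to 9.30%), and at this depth the intervals overlap. Low *Prc1* counts were also found on the GNF4877 chip in cells that held *Gcg* but were not Ins1-high, 7 of 18 (38.9%, 17.3% to 64.3%), of which 5 held 1 to 3 reads, at a median of 1388772 mapped reads. In DMSO 1 of 5 such cells held *Prc1* (20%, 0.505% to 71.6%). With 1 sample per treatment, these shares describe the cells and cannot decide whether the treatments differ. The part of reads carried between cells of a chip in these low counts was not tested.

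Over all Ins1-high cells, without regard to *Ccnb1*, 7 of the 10 members were past 4-fold higher in GNF4877, beside 2.64% of 13973 genes (369 genes), and none was past 4-fold lower, beside 4.46% of the genes. All 10 had the minimum mean. Of these 10, *Ect2*, *Kif23*, *Birc5* and *Cdca8* reached it in GNF4877 only. Past 4-fold were 4 of the other 6, beside 1.71% of the 12012 genes that reached it in both treatments. With log2(RPM + 1) averaged over cells first, only 1 of the 10 was past 4-fold, beside 26 of the 13973 genes. The median of the members, 3.56 on the main scale, was then 0.95. Log2 ratios ran from 1.17 for *Cep55* through 1.28 for *Birc5* and 1.85 for *Kif20a*, which were not past 4-fold, to 4.53 for *Prc1* and 5.32 for *Ect2*. The median of these ratios stood beside −0.11 over all genes. DMSO cell 46 alone held most of the DMSO reads of several members, and without it the median was 4.17. *Prc1* was then 6.56, *Anln* 4.41, *Aurkb* 4.04, *Kif20a* 2.44 and *Cep55* 2.19, the last pair now past 4-fold. From the other side, *Cep55* was 0.07 without GNF4877 cell 30, *Kif20a* 1.02 without cell 40, *Aurkb* 2.15 without cell 17, *Anln* 2.69 without cell 11 and *Kif23* 3.27 without cell 16. *Racgap1*, 3.75 with all cells, was 4.54 without DMSO cell 37.

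DMSO cell 46 was the only DMSO cell with 10 RPM or more of *Prc1* (260.0 RPM), *Anln* (88.1 RPM), *Kif23* (12.3 RPM) or *Cep55* (80.2 RPM), and it held 266 RPM of *Kif20a* and 181 RPM of *Aurkb*. Its level of *Ect2* (17.6 RPM) lay in the lower part of the range of the GNF4877 Ccnb1-high cells. Its *Racgap1* (8.81 RPM) lay under that of every GNF4877 Ccnb1-high cell with a *Racgap1* read. The cell also carried markers of mesenchyme. All 7 of the listed genes had reads, with a sum of 14452 RPM led by *Col1a1* (3470.2 RPM), beside β-cell markers that summed to 12271 RPM with *Mafa* at 0. All 5 endothelial and all 7 immune markers were at 0 there. Summed mesenchymal markers had a mean of 1.06 RPM in the Ccnb1-high and also in the Ccnb1-zero GNF4877 cells, each led by *Pdgfra*, with *Col3a1* and *Dcn* at 0 in the former. In the DMSO Ccnb1-zero cells the mean was 146 RPM, led by *Sparc*, but the median was 1.11 RPM, and nearly all of that mean came from cell 24, with 10913 RPM. Their part in the members' reads of cell 46 was not tested.

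Some partners of a complex were found together, and others often apart, where a level of 10 RPM or more was asked of each. In the 59 Ins1-high GNF4877 cells, *Kif23* reached it in 7, and all 7 also held *Racgap1*, its centralspindlin partner, and *Prc1*. *Racgap1* reached it in 13 cells, so 6 cells had *Racgap1* without *Kif23*. *Ect2* reached it in 12 cells, 9 of them with *Racgap1*, 9 with *Prc1* and 9 with *Cdca8*. *Anln* reached it in 9 cells, 7 of them with *Racgap1*. Within the passenger complex, *Aurkb* reached 10 RPM in 9 cells, of which 6 held *Cdca8* and 3 held *Birc5*, while all 4 *Birc5* cells held *Ect2*, *Prc1*, *Anln* and *Racgap1*. The 3 *Cep55* cells were among the richest, each with *Ect2*, *Prc1*, *Anln*, *Racgap1*, *Kif23* and *Cdca8* as well.

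Members differed in how often they stood alone. *Cdca8* was the member most often at 10 RPM or more, in 18 cells, and in 6 of these no other member reached that level. For *Kif20a* this was so in 4 of 12 cells, whereas no cell held *Prc1* (12 cells), *Kif23* (7 cells), *Birc5* (4 cells) or *Cep55* (3 cells) alone. Counted by class, *Racgap1* cells were 9 Ccnb1-high, 1 between and 3 Ccnb1-zero, and *Cdca8* cells were 9, 2 and 7. *Kif20a* cells were 4 in each class, out of 11 Ccnb1-high, 8 between and 40 Ccnb1-zero cells. In the 78 Ins1-high DMSO cells, *Kif20a* reached 10 RPM in 10 cells and stood alone in 9 of them, cell 46 being the exception.

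**Figure D3:**
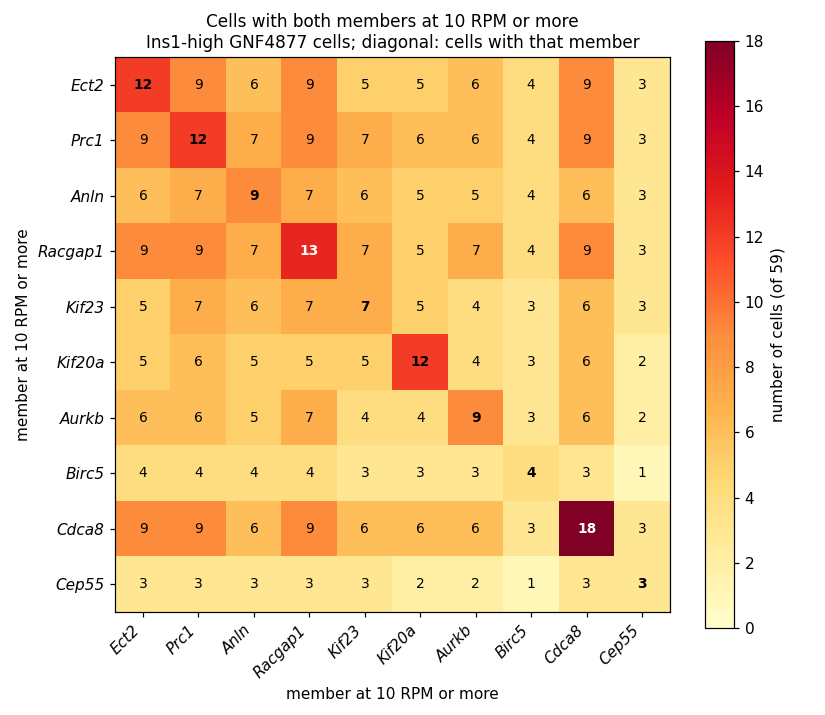
Number of the 59 Ins1-high GNF4877 cells in which both members of a pair reached 10 RPM, with the members on both axes, colour and digits giving the number of cells, and the diagonal giving the cells with that member. *Kif23* is found only with *Racgap1* and *Prc1*, 7 cells each, while at most 9 of the 18 *Cdca8* cells hold any other given member.

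Several cells outside the Ccnb1-high class held groups of members. GNF4877 cell 95, between the classes, held 635 RPM of *Prc1*, 369 RPM of *Ect2*, 296 RPM of *Racgap1* and 213 RPM of *Aurkb*. GNF4877 cell 37, with 0.777 RPM of *Ccnb1* and 15778 RPM of *Sst* beside its *Ins1*, held 112 RPM of *Prc1* and 89.3 RPM of *Kif20a*. Of the Ccnb1-zero GNF4877 cells, 17 of 40 (42.5%) held 10 RPM or more of at least 1 member and 4 of 40 of at least 2. Cell 12 held the central spindle genes *Prc1* (143 RPM), *Racgap1* (97.2 RPM) and *Kif23* (66.2 RPM) with no read of *Ect2*, *Anln* or a passenger gene. Cell 26 held *Ect2* (46.3 RPM), *Cdca8* (58.7 RPM) and *Prc1* (11.05 RPM), and cell 50 held *Prc1* (108 RPM) and *Cdca8* (15.9 RPM). Cell 29 held *Aurkb* (211 RPM) with *Kif20a* (11.6 RPM). In DMSO, 16 of the 77 Ccnb1-zero cells held 10 RPM or more of 1 member and none of 2.

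Other genes of the same machinery fell into groups that differed. Of the 8 genes in the table for the passenger complex and its recruiters, 6 were past 4-fold higher in Ccnb1-high over Ccnb1-zero GNF4877 cells, with a median log2 ratio of 4.75, beside 7.45% of all genes. They were the checkpoint kinase *Bub1* (6.61), the mitotic kinase *Plk1* (6.15), the kinesin *Kif2c* (5.96), the passenger scaffold *Incenp* (4.82), the checkpoint kinase *Ttk* (4.67) and the shugoshin *Sgol2* (3.68). *Aurkc*, the close relative of *Aurkb*, was past 4-fold lower (−2.27), at 0.963 against 8.45 RPM, beside 11.4% of all genes. It was read in 1 of 11 against 6 of 40 cells, and having the minimum mean in the Ccnb1-zero cells only, it had to be lower. Of the 6, only *Sgol2* and *Ttk* reached a mean of 1 RPM in both classes, while *Incenp*, *Bub1*, *Plk1* and *Kif2c* reached it in the Ccnb1-high cells alone and so had to be higher. *Plk1* and *Kif2c* were each read in few Ccnb1-high cells, 3 and 5 of 11.

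Genes of the ring and midzone were mixed. Of the 23 in the table, 21 had the minimum mean and 5 were past 4-fold higher, beside 7.45% of all genes, the spindle protein *Nusap1* (7.59), the midzone kinesin *Kif4a* (5.77), the formin *Diaph3* (3.84), the kinesin *Kif14* (2.44) and citron kinase *Cit* (2.39). These 5 reached a mean of 1 RPM only in the Ccnb1-high cells and so had to be higher, and 0 of the 16 genes that reached it in both classes were past 4-fold higher, beside 5.17% of all such genes. The median of the list was 0.31. The others, apart from *Arhgef2*, were not past 4-fold, and only some of them are named here. Among them, log2 ratios were −1.02 for *Rhoa*, 1.70 for the midzone kinesin *Kif20b*, −0.53 for *Rock2* and 0.84 for *Myh10*. Further values were −0.07 for *Rock1*, −0.07 for *Myh9*, 0.20 for *Sept2* and 0.05 for *Rab11a*. *Arhgef2*, an exchange factor for RhoA held on microtubules, was lower by more than that (−2.97), beside 11.4% of all genes. None of the 14 abscission genes in the table was past 4-fold higher and 2 were past 4-fold lower, *Zfyve19* (−4.16) and *Chmp4c* (−2.27). The median was 0.17, with 1.27 for *Tsg101*, which Cep55 binds at the midbody. Both *Zfyve19* and *Chmp4c*, genes of the abscission checkpoint, had no read in the 11 Ccnb1-high cells and so had to be lower, and they were read in 8 and 3 of the 40 Ccnb1-zero cells.

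For comparison with the 7.45% of all genes, or 5.17% of those at 1 RPM in both classes, 13 of 14 spindle and kinetochore genes were past 4-fold higher, among them all 10 that reached 1 RPM in both, with a median of 3.86, or 4.18 with genes absent from the Ccnb1-zero cells at their bound without a pseudocount. Of 18 genes of S phase, the phase of DNA replication, 11 were past 4-fold higher, 10 of them among the 17 that reached 1 RPM in both classes, with a median of 2.38. In Ccnb1-zero cells of GNF4877 over DMSO the medians over genes with the minimum mean were 1.26 for the passenger list (4 genes, against 0.24 over all 8 in the table), −0.28 for ring and midzone (19), −0.16 for abscission (14), 1.16 for spindle and kinetochore (11) and 0.80 for S phase (17). Past 4-fold, beside 2.05% of all genes, were *Kif20b* of the midzone (4.65), *Nuf2* (2.98) and *Spag5* of the kinetochore and spindle, and the replication gene *Mcm3* (3.62). *Kif20b*, and *Spag5* with no read in DMSO, reached the minimum mean in GNF4877 only and so had to be higher.

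Across the 59 Ins1-high GNF4877 cells, the genes outside of the 10 whose log2(RPM + 1) ran most closely with the mean of the members were *Nusap1* (Pearson r of 0.911), *Tpx2* (0.902), *Ckap2* (0.889), *LOC691173* (0.885), *Cdca3* (0.882), *Bub1* (0.881), *Ube2c* (0.878) and *Cenpt* (0.877). The median r over the 10812 genes compared was 0.0669. Each member was also set against the mean of the other 9, with r from 0.596 for *Kif20a* and 0.600 for *Cdca8* to 0.876 for *Prc1*, while *Ccnb1* had 0.772 against the members and *Ins1* 0.230. All points come from 1 chip, most values are 0, and the members' mean also ran with the number of genes read per cell (0.434) and with mapped reads (0.286), so these are descriptions.

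Promoters are shown because several members were high in the same cells, though *Cdca8* and *Kif20a* often stood alone. Of the 10 members, 8 were matched by symbol in the RefSeq promoter table of build GRCr8, which gives 300 bases around each gene's start, most of them before it. *Racgap1* and *Aurkb* were not matched. The letters of the cell cycle genes homology region, TTTGAA or TTTAAA, and the letters CCAAT were searched on both strands. TTTGAA was found in 7 of the 8 member promoters, beside 18.3% of all 33469 promoters of the same length, and TTTAAA in 1 of 8 (*Kif20a*), beside 13.6%. CCAAT was found in 6 of 8, beside 37.5%, and 6 of 8 held CCAAT with either of the others, beside 11.3%. *Anln* and *Cep55* held no CCAAT in this window. A match describes letters only and is not a binding site.

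The stretch from 100 bases before to 10 bases after the start is printed for the 7 members with TTTGAA, read 5′ to 3′ on the strand of the gene, with capitals for TTTGAA or its reverse TTCAAA, to show how its place differs among them. They lie at chr2:111966617-111966726 (minus strand) for *Ect2*, chr1:143659381-143659490 (plus) for *Prc1*, chr8:29197504-29197613 (minus) for *Anln*, chr8:71320575-71320684 (minus) for *Kif23*, chr10:103572046-103572155 (plus) for *Birc5*, chr5:142483190-142483299 (minus) for *Cdca8* and chr1:245245263-245245372 (plus) for *Cep55*.
Ect2: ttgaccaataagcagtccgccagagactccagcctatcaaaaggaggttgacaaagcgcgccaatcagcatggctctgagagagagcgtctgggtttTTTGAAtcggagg
Prc1: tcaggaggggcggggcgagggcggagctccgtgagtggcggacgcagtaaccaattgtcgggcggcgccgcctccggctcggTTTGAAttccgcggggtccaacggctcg
Anln: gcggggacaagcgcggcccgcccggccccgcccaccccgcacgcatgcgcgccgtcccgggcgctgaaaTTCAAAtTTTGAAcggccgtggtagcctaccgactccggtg
Kif23: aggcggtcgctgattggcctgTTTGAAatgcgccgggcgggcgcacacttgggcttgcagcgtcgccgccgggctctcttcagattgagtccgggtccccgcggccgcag
Birc5: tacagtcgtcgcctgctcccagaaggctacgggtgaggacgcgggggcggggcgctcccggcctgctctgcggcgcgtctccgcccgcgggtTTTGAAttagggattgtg
Cdca8: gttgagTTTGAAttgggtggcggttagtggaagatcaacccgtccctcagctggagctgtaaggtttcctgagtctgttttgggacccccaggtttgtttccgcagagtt
Cep55: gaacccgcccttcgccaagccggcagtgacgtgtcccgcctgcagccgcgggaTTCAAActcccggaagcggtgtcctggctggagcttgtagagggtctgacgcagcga
The match begins 3 bases before the start in *Ect2*, 8 in *Birc5*, 18 in *Prc1*, 47 in *Cep55*, 79 in *Kif23* and 94 in *Cdca8*. *Anln* holds the letters on both strands, from 31 and from 24 bases before the start. *Ect2* has a further match outside the printed stretch, from 155 bases before the start. In *Cdca8* the letters CCAAT on the other strand begin 89 bases before the start and so share a base with the match. In no other member did CCAAT overlap TTTGAA.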

How the data were processed

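The authors deposited RPM for 27586 rat RefSeq transcripts in 170 cells, the reads of a transcript per 1000000 mapped reads of the cell, and had kept ports with a single cell and more than 100000 mapped reads. The methods name the mouse transcriptome as the target of alignment, which conflicts with these rat transcripts, so the reference behind the RPM is unresolved. The submitters' processing notes name CASAVA 1.8.2, BWA 0.5.9 and SAMtools 0.1.19; the genome build was not given in the sources used here. Here the floor of 0.01 RPM was set to 0 and the transcripts of a symbol were added up, which gave 24113 genes. The step between a cell's values gave back its reads as whole numbers, with 100% of the values up to 20 reads no further than 0.1 from a whole read. With 1 sample per treatment, no count test was run on them.

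The members and lists were chosen with earlier results of these data known. Named are the 10 members with *Ccnb1* and *Ins1*, every gene of the passenger, ring and midzone, and abscission lists past 4-fold (a log2 ratio of 2) either way in Ccnb1-high over Ccnb1-zero cells, and the 8 genes most like the members among genes read in 10 or more Ins1-high GNF4877 cells. Listed genes under 4-fold, listed genes past 4-fold between treatments and single cells were named after their values were seen. Comparisons used log2((mean RPM + 1)/(mean RPM + 1)) for genes with a mean of 1 RPM or more in either set of cells. Shares have exact Clopper-Pearson intervals at 95% confidence, and ratios with 1 to 3 reads in a class have exact counting intervals over summed reads. Alternatives changed the detection level, depth, pseudocount, scale, thresholds, treatment of transcripts and cells used. The ratio step was run on simulated data, and its behaviour for genes read in few cells was not tested. Doublets were not removed. Calculations ran in Python 3.11.15 with pandas 2.3.3, numpy 2.4.6 and scipy 1.17.1, and drawings in matplotlib 3.10.9.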

Additional observations from a re-analysis of the deposited data

Results flagged for a closer look

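Cells that were not Ins1-high enter none of the comparisons above, yet some of them held many members. Reads of 5 or more members were found in 12% of these cells in GNF4877 (3 of 25, exact interval 2.55% to 31.2%) and in 0 of 8 in DMSO, which allows a share of up to 36.9%. With 1 sample per treatment, no number of cells could separate the treatments. GNF4877 cell 20, with 357885 RPM of the glucagon gene *Gcg*, had reads of 9 members, and cell 49, with 35288 RPM of the somatostatin gene *Sst*, of 8 members. Cell 15, with 9 members, held 5803 RPM of *Col1a1* and 19954 RPM over the mesenchymal markers. The share drew attention because it lies in cells outside the main measurement and above that of the DMSO cells.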

How the results depend on the processing

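No paired analysis was possible because nothing links a DMSO cell to a GNF4877 cell and either treatment is 1 sample. Depth limits what a single cell can show, since 1 read is worth about 1 RPM or less in most cells, and a member not read may still be expressed. The share of cells with 5 or more members stayed inside its 95% interval in 16 of 18 values, each alternative giving a value for either treatment. Among these 16 was 2.56% of DMSO cells (2 of 78) at 3 or more members, against 1.28%. The exceptions were 44.1% of GNF4877 cells (26 of 59) at 3 or more members, and 0% of DMSO cells (0 of 76) without cells at 1000 RPM or more of *Col1a1*, an alternative chosen after seeing the data that leaves out cell 46.

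For Ccnb1-high over Ccnb1-zero GNF4877 cells, the median log2 ratio of 4.57 became 5.21 with a pseudocount of 0.1 RPM, 3.30 with 10 RPM, 3.73 as a difference of mean log2(RPM + 1) and 3.93 with any *Ccnb1* read as high. Leaving out single cells gave 4.12 to 4.73. The 10 members past 4-fold became 7 with 10 RPM and 8 as a difference of mean logs, and 9 or 10 with single cells left out. The 971 genes past 4-fold became 234 with 10 RPM and 458 as a difference of mean logs.

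Between Ccnb1-zero cells of the treatments, the median of 1.76 became 2.97 with 0.1 RPM, 0.44 with 10 RPM and 0.22 as a difference of mean logs, which moved the median of all genes from −0.16 to −0.49. Leaving out single cells gave 1.07 to 1.91. The 5 members past 4-fold became 0 with 10 RPM, 0 as a difference of mean logs and 3 with any *Ins1* value above 0 as Ins1-high. The 282 genes past 4-fold became 556 with 0.1 RPM, 32 with 10 RPM and 19 as a difference of mean logs. *Anln* changed sign, from 3.70 to −0.05, without GNF4877 cell 11, which held nearly all of its reads, and its leave-one-out range was −0.047 to 3.78. *Racgap1* (0.79) and *Kif23* (1.30), not past 4-fold, also changed sign without GNF4877 cell 12, to −0.26 and −0.07.

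Over all Ins1-high cells, the median of 3.56 became 4.18 with 0.1 RPM, 1.73 with 10 RPM, 0.95 as a difference of mean logs and 4.16 without the *Col1a1* cells, and leaving out single cells gave 3.23 to 4.17. The 7 members past 4-fold became 3 with 10 RPM and 1 as a difference of mean logs. The 369 genes became 659 with 0.1 RPM, 66 with 10 RPM and 26 as a difference of mean logs. A pseudocount weighs on genes with a low mean by construction; the cause of the other shifts was not tested. Log2 ratios of single members were below 0 in 0 of 140 values for Ccnb1-high over Ccnb1-zero, 23 of 120 between Ccnb1-zero cells and 0 of 120 over all Ins1-high cells.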
